A study of Mus musculus with 16 samples.

Results

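Haem is made in steps that begin and end in the mitochondrion. The genes described here are the 9 haem synthesis genes Alas2, Alas1, Alad, Uros, Urod, Cpox, Ppox, Fech and Slc25a37, taken by gene name from all probes of a mouse expression array, and they stand beside 28250 genes or transcripts that could be tested. They hold 19 probes on the array. All arrays carried RNA of subchondral bone, the bone under the joint cartilage, laser-dissected from the medial tibial plateau of male wild type C57BL6 mice that were 10 to 12 weeks old at surgery. The 4 groups, of 4 arrays each, were joints taken 6 weeks after destabilization of the medial meniscus (DMM), 6 weeks after sham surgery, 1 week after DMM and 1 week after sham surgery. DMM is the cutting of the ligament that holds the medial meniscus to the tibia and is a surgical model of osteoarthritis. In sham surgery the ligament was exposed and left uncut. Every mouse was operated on both knees, and 1 joint of each mouse went to an array, so each array is a separate animal. All sham joints were also opened and flushed, and joints without surgery are not among these groups. The 6-week mice were older than the 1-week mice, so time after surgery and age cannot be told apart.

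The first step of the pathway joins glycine to succinyl-CoA and is done by an aminolevulinate synthase. Most tissues use Alas1, whose transcription is held down by haem, whereas developing red cells use Alas2, which is encoded on the X chromosome. Bone marrow is the main site of red cell formation in the adult mouse and lies in the spaces of the bone, so sections of subchondral bone can hold erythroid precursors. Alad then joins aminolevulinate molecules into porphobilinogen in the cytosol, and later in the pathway Uros closes the ring and Urod trims its side chains. Cpox and Ppox are oxidases that act in and at the mitochondrion, and Fech inserts iron. Slc25a37, also called mitoferrin-1, is the carrier that brings iron into the mitochondria of erythroid cells.

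The contrast between the synthases rests on the probes, so a few of them are shown. Alas2 is read by 1 probe on the X chromosome, and Alas1 by 3 probes on chromosome 9. The Alas1 probe that stands for the gene, and gave its values below, lies at chr9:106136284-106136343 on the minus strand and is not printed. The Alas1 probes printed here are the others. The following 60-base probes are given 5′ to 3′ in lower case as the files hold them, with mm9 coordinates from the same files.
Alas2, chrX:147004993-147005052, plus strand: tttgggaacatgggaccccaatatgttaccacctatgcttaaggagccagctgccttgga
Alas1, chr9:106137803-106137862, minus strand: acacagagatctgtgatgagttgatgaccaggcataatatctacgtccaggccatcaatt
Alas1, chr9:106141046-106141105, minus strand: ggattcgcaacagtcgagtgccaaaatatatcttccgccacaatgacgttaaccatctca
The longest run of bases shared between the Alas2 probe and any Alas1 probe was 6 bases, with the probe that stands for Alas1. With each of the printed ones it was 5 bases. The other 1-probe genes were Urod and Fech. Alad, Cpox and Ppox had 2 probes each, Uros had 3 and Slc25a37 had 4. Of the 19 probes, 18 were well above background on all 16 arrays. The other one, named Alad in the file, was well above background on 0 arrays and lies on the plus strand at chr4:62182797-62182856, whereas the measured Alad probe lies on the minus strand, so it gave no value here. Each gene was represented by its brightest probe, judged over all arrays.

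Values are log2 intensities minus the 75th percentile of all probes on the same array, so that a value of 1 is double the percentile. They were compared for 1 probe at a time, since levels of different probes cannot be set against each other. At 6 weeks, 8 of the 9 genes had higher means than at 1 week, and Alas1 had a lower one. Averaged over both surgeries, the mean of Alas2 was 2.47-fold higher, that of Fech 2.27-fold and that of Alad 2.04-fold, and these 3 genes passed limma's test at a p adjusted over all genes under 0.05, as did 0.641% of all genes in that direction. Between DMM and sham joints none of the 9 genes passed at either time, nor did any other gene tested (0%). The plot of all values by array shows both comparisons.

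**Figure D1:**
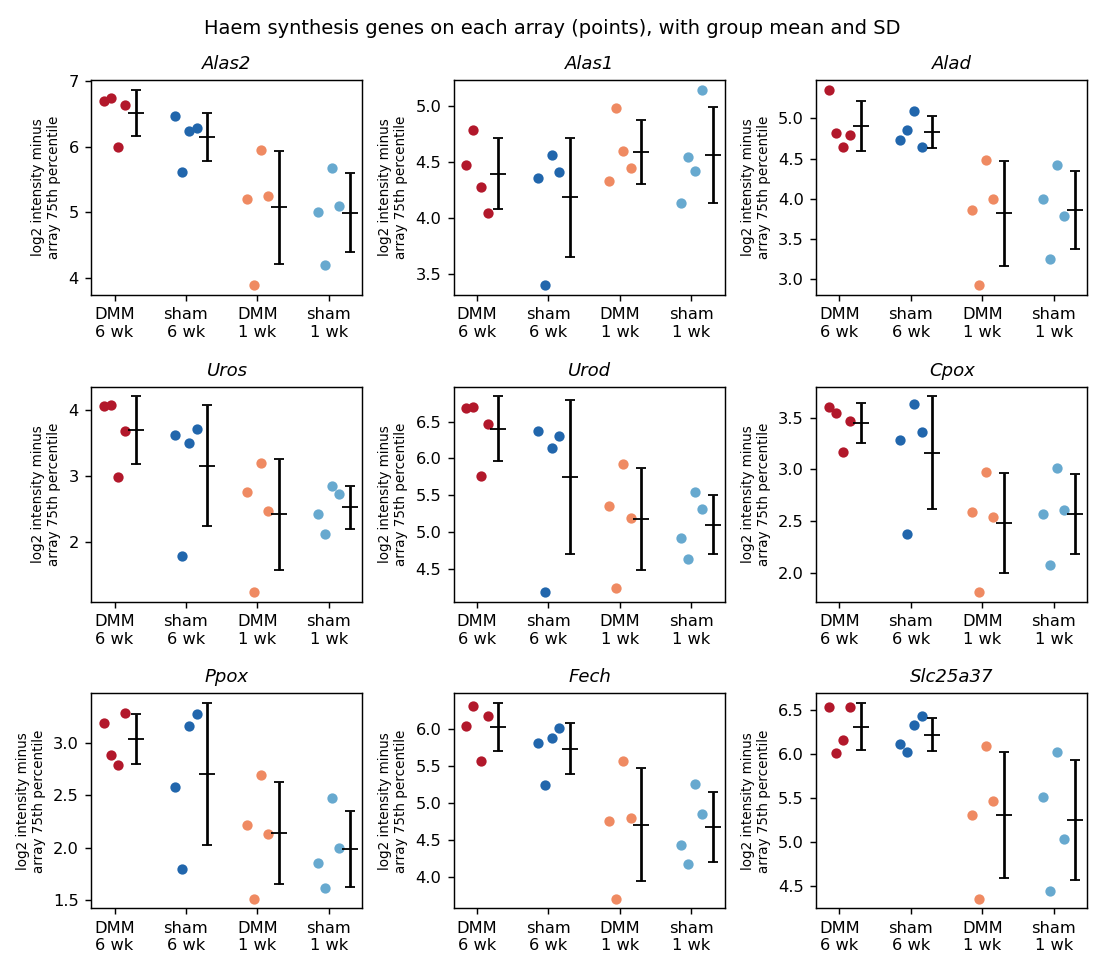
Log2 intensity minus the array's 75th percentile (vertical axes, a scale for each gene) of the 9 haem synthesis genes on each of 16 arrays (points), with the group mean and SD (bars, n = 4). In Alas2 all 6-week arrays lie between 5.62 and 6.75 and all 1-week arrays between 3.89 and 5.95, while the Alas1 values of all 4 groups overlap.

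Alas2 read 6.70, 6.75, 5.99 and 6.63 in the 6-week DMM joints and 6.47, 5.62, 6.24 and 6.28 in the 6-week sham joints. It read 5.21, 3.89, 5.95 and 5.24 in the 1-week DMM joints and 5.00, 4.20, 5.67 and 5.09 in the 1-week sham joints. In order of their means, the groups were 6-week DMM (6.52 ± 0.35), 6-week sham (6.15 ± 0.37), 1-week DMM (5.07 ± 0.86) and 1-week sham (4.99 ± 0.60; SD, n = 4 each), and the DMM and sham arrays of each time overlapped. DMM minus sham was 0.37 ± 0.39 at 6 weeks and 0.08 ± 0.39 at 1 week (SE). All 8 arrays of 6 weeks lay above the 1-week mean, but the 2 times overlapped, since the highest 1-week value exceeded the lowest 6-week value. The difference was 1.30 ± 0.27 (SE), and limma gave an adjusted p of 0.0434 with a 95% interval of 0.72 to 1.89.

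Fech, which completes haem by inserting iron, read 6.04, 6.30, 5.56 and 6.17 in the 6-week DMM joints and 5.80, 5.24, 5.87 and 6.01 in the 6-week sham joints. The same gene read 4.75, 3.72, 5.57 and 4.79 in the 1-week DMM joints and 4.44, 4.18, 5.25 and 4.85 in the 1-week sham joints. The times overlapped narrowly after either surgery. After DMM the lowest 6-week value was 5.56 and the highest 1-week value 5.57, and after sham they were 5.24 and 5.25. The difference of Fech was 1.18 ± 0.24 (SE), with an adjusted p of 0.0401 in limma.

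Alad, the enzyme after the synthase, was the only one of the 9 genes with no overlap between the 8 arrays of each time. Its values were 5.36, 4.82, 4.64 and 4.80 in the 6-week DMM joints and 4.73, 4.86, 5.10 and 4.64 in the 6-week sham joints. In the 1-week DMM joints they were 3.85, 2.92, 4.49 and 4.00, and in the 1-week sham joints 3.99, 3.25, 4.42 and 3.79. The lowest 6-week value was 4.64 and the highest 1-week value was 4.49. Alad differed by 1.03 ± 0.22 (SE), with an adjusted p of 0.0434 in limma. Of all genes tested, 0.372% were higher at 6 weeks without overlap over these 8 and 8 arrays.

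The intermediate enzymes had higher 6-week means that did not pass the test. Urod was 0.94 ± 0.32 higher on the log2 scale, Uros 0.96 ± 0.32, Ppox 0.80 ± 0.23 and Cpox 0.78 ± 0.21 (SE). The iron carrier Slc25a37 was 0.99 ± 0.25 higher. For these 5 genes limma's adjusted p lay between 0.0652 and 0.155.

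In Urod, Uros, Cpox, Ppox and Alas1, 1 array stood low among the 6-week sham joints, and it was replicate 2 in each. It was also the lowest of its group in Alas2 (5.62 against 6.24 to 6.47) and Fech (5.24 against 5.80 to 6.01). In Slc25a37 it was lowest by less (6.02 against 6.11 to 6.43), and in Alad it was not the lowest. Urod read 4.20 on that array and between 6.15 and 6.37 on the other three of its group. The same array had the lowest 75th percentile of signal, 329 intensity units against 471 to 873 on the others. Without it the differences of Urod, Uros, Ppox and Cpox were 1.20, 1.18, 0.96 and 0.91, and 8 of the 9 genes passed the test in place of 3. Alas1 was the gene that did not pass. The number of all genes that passed also moved when single arrays were left out. The last section gives its range over these omissions and no count for this array alone. The 8 genes are therefore not set against a share of all genes, and the rise in calls is not read as a trait of these genes.

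Alas1, the synthase of most tissues, ran the other way by a small and uncalled amount. Its values were 4.47, 4.79, 4.28 and 4.04 in the 6-week DMM joints and 4.36, 3.40, 4.57 and 4.42 in the 6-week sham joints. In the 1-week DMM joints they were 4.34, 4.99, 4.60 and 4.45, and in the 1-week sham joints 4.14, 4.55, 4.42 and 5.15. The groups overlapped throughout. The difference was −0.29 ± 0.20 (SE), with a 95% interval of −0.71 to 0.13 and an adjusted p of 0.551 in limma. Replicate 2 of the 6-week sham joints, the dim array, read 3.40 against 4.36 to 4.57 on the other three, and without it the difference was −0.16 over both surgeries and −0.12 after sham. With all arrays, the 95% interval ends below 0.72, the lower bound for Alas2.

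These counts stand against 247 of 28250 genes, or 0.874%, that passed in either direction between 6 weeks and 1 week over both surgeries, 181 of them higher. The median difference of the 9 genes was 0.96 and that of all genes tested 0.04. Without overlap after DMM, Alas2, Alad, Cpox and Ppox were higher at 6 weeks, as were 2.8% of all genes. After sham surgery the groups were apart in Alad alone, and 2.18% of all genes were higher in that way. Within 1 surgery no gene passed, 0% of those tested after DMM and 0% after sham, although 2741 and 2020 genes had an unadjusted p under 0.05 in limma. After DMM, Alas2 was 1.44 ± 0.39 higher and after sham 1.16 ± 0.39 higher (SE), with adjusted p of 0.256 and 0.612 in limma.

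**Figure D2:**
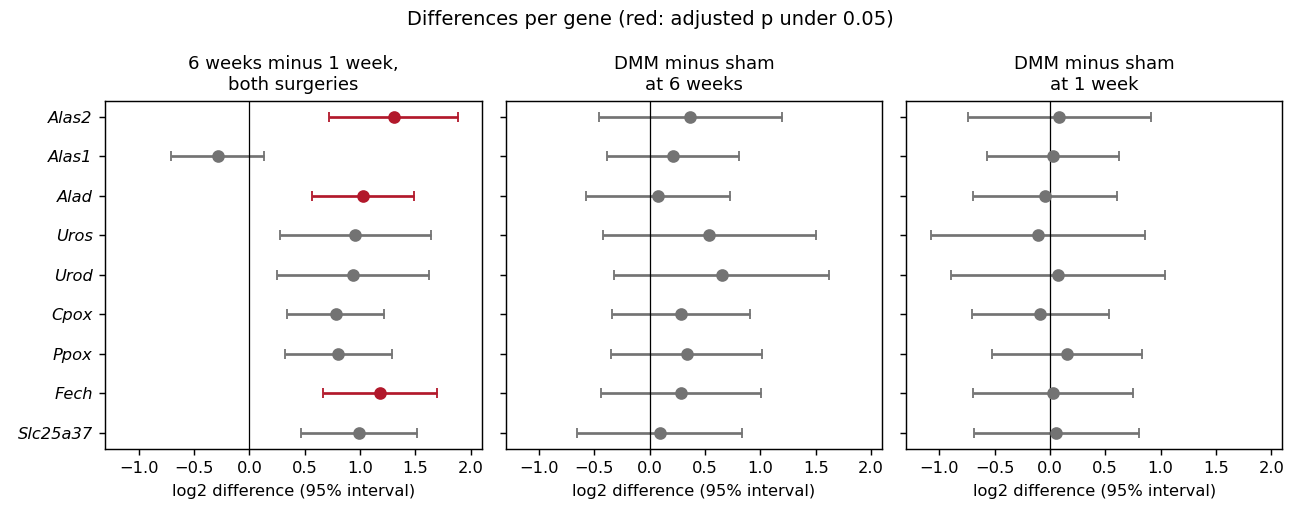
Log2 differences of the 9 haem synthesis genes with 95% intervals from limma, for 6 weeks minus 1 week over both surgeries (left) and DMM minus sham at 6 weeks (middle) and at 1 week (right). Alas2, Alad and Fech (red) passed at an adjusted p under 0.05 on the left, and the intervals of both DMM panels include 0 for every gene.

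Probes of 1 gene gave differences of 1 sign. All 15 measured probes of the other 8 genes had a positive difference between 6 weeks and 1 week, and all 3 probes of Alas1 had a negative one. The positive differences ran from 0.42 in 1 of the 2 Ppox probes to 1.30 in Alas2. The 3 Uros probes gave 1.12, 0.96 and 1.14. The 4 Slc25a37 probes gave 0.99, 0.91, 0.79 and 0.91, and in the probe fit one of them, at chr14:69863195-69863254, passed with a limma adjusted p of 0.0401 while the probe that stands for the gene did not. The Slc25a37 probe at chr14:70080666-70080725 lies apart from the other three, which span positions 69860020 to 69902856, and its difference was 0.79 ± 0.37. The 3 Alas1 probes gave −0.27, −0.29 and −0.32. In that fit of 43268 probes, 0.832% passed.

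**Figure D3:**
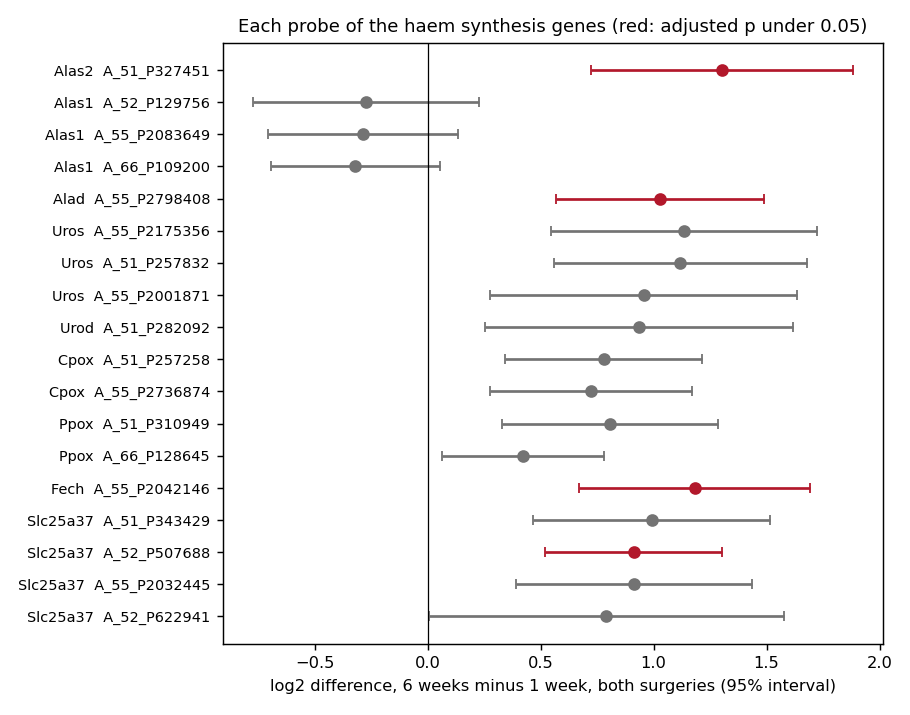
Log2 difference of 6 weeks minus 1 week over both surgeries, with 95% intervals from limma, for the 18 measured probes of the 9 genes. The 3 Alas1 probes lie left of 0 and the other 15 right of it, between 0.42 and 1.30.

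Between the synthases, Alas2 minus Alas1 was taken on each array, which asks whether they moved unequally. This test was chosen after the values were seen, and its p was not adjusted for other pairs of genes that could have been chosen. The difference was 2.22, 1.95, 1.71 and 2.59 in the 6-week DMM joints and 2.11, 2.22, 1.67 and 1.86 in the 6-week sham joints. It was 0.87, −1.10, 1.36 and 0.79 in the 1-week DMM joints and 0.86, −0.35, 1.24 and −0.06 in the 1-week sham joints. All 8 arrays of 6 weeks, from 1.67 to 2.59, lay above all 8 of 1 week, from −1.10 to 1.36. Alas2 therefore differed between the times by 1.59 more than Alas1 did, and the exact 2-sided permutation test over 8 and 8 arrays gave p = 0.000155, the smallest that its 12870 arrangements can give. With the other Alas1 probes the difference was 1.57 and 1.62, with exact permutation p of 0.000155 and 0.000622. It was 2.05 within slide 1 and 1.13 within slide 2. DMM and sham joints overlapped in it, with a DMM minus sham difference of 0.15 at 6 weeks and 0.06 at 1 week (exact permutation p = 0.514 and p = 0.886).

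**Figure D4:**
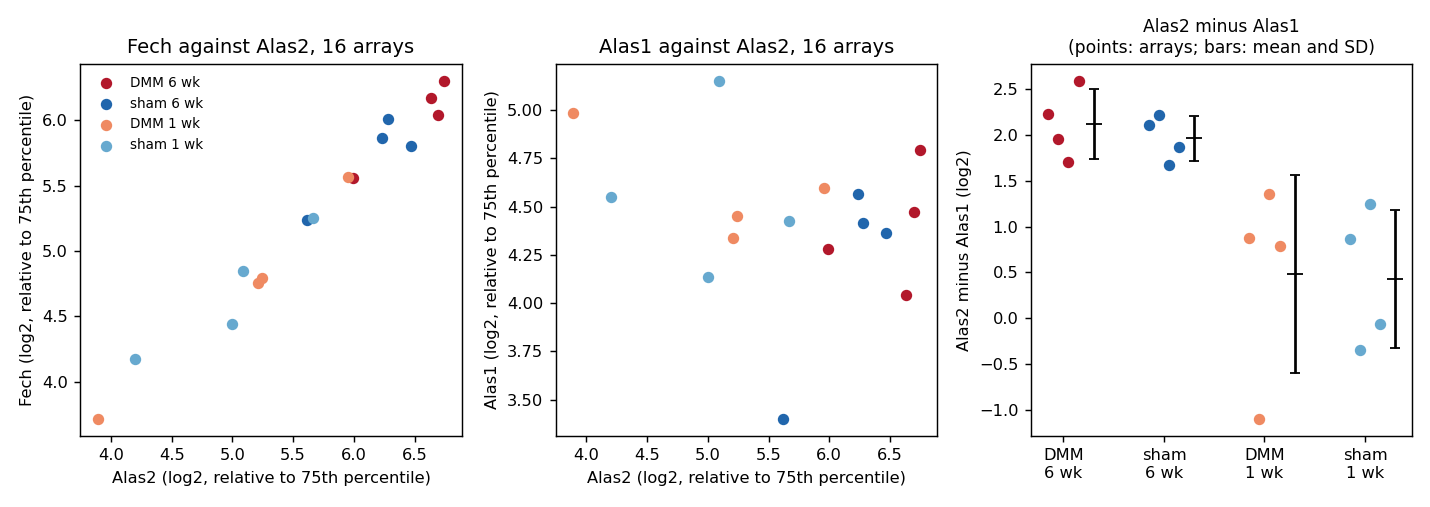
Fech against Alas2 (left) and Alas1 against Alas2 (middle) on 16 arrays, in log2 relative to the array's 75th percentile, and Alas2 minus Alas1 on each array (right, with group means and SD, n = 4). Fech follows Alas2 closely across all groups, Alas1 does not over all 16 arrays, and every 6-week difference on the right lies above every 1-week one.

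Across all 16 arrays Alas2 varied together with 7 of the other genes from animal to animal, and Alas1 did not pass that test. Genes outside the pathway were not put through it. The share of all genes that would pass is therefore not known, and the result does not set these genes apart. Fech had a Pearson r of 0.99 and a Spearman rho of 0.98 with Alas2, and Cpox had 0.95 and 0.90. The values were 0.94 and 0.83 for Slc25a37, 0.94 and 0.85 for Alad, 0.90 and 0.94 for Uros, 0.90 and 0.89 for Ppox and 0.89 and 0.93 for Urod. In permutation tests with 100000 resamples, adjusted over the 8 relations, these 7 genes had p of 4e-05 to 5e-05 for r and 4e-05 to 0.0003 for rho. Without the 2 arrays farthest from the Alas2 median, replicate 2 of both 1-week groups, r stayed between 0.85 and 0.98. After the group means were subtracted it lay between 0.78 and 0.96. It was 0.86 to 0.99 within slide 1 and 0.90 to 0.99 within slide 2. So arrays of 1 group differed in the same direction over these genes, on top of the difference between the times.

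Alas1 had r = −0.24 and rho = −0.13 with Alas2, with adjusted permutation p of 0.378 and 0.644. It was −0.15 in slide 1 and −0.71 in slide 2, where the exact permutation p adjusted over the 8 relations was 0.0471. Among the 8 arrays of 6 weeks Alas1 had r = 0.72 with Alas2, and among those of 1 week −0.34, neither of them tested. The dim sham 6-week replicate 2 had the lowest 6-week value of both genes, 3.40 in Alas1 and 5.62 in Alas2. Without that array, r over the remaining arrays of both times was −0.35, so the 6-week value leans on 1 array. The 6-week value for Ppox was 0.70. At that time Alad and Slc25a37 followed Alas2 less closely (r = 0.29 and 0.42) than Fech, Uros and Urod did (0.94, 0.94 and 0.93), without a test of that difference. At 1 week all 7 had r between 0.94 and 0.98.

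Of 22758 genes ranked by r with Alas2 over the 16 arrays, Fech came after Ces2g and Dnajb3 only. The next were Isca1, Glrx5, Prxl2a, Slc6a20a, Cdr2, Scd4 and Prdx2, and the 10 genes had r of 0.98 to 0.99. Glrx5 carries iron-sulphur clusters in the mitochondrion, Isca1 assembles them, and Prdx2 is an abundant peroxidase of red cells. The 2 genes closest to each other gene were Abcg2 and Rhd for Uros, Hagh and Nt5c3 for Urod, Tspan33 and Ubac1 for Cpox, Slc25a38 and Afmid for Ppox, Isca1 and Alas2 for Fech, Ifrd2 and Slc38a5 for Alad, and Ppp1r15a and Samd14 for Slc25a37. Closest to Alas1 were Oscp1 and Ap3s1, with r of 0.96 and 0.95.

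DMM minus sham differences of the 9 genes did not pass the test at either time. At 6 weeks all 9 means were higher in DMM joints, between 0.07 ± 0.31 in Alad and 0.65 ± 0.45 in Urod (SE), with a median of 0.29 against −0.02 over all genes. None passed in limma, as none of the 28250 genes did (0% called, adjusted p 1.00 for every member and 220 genes with an unadjusted p under 0.05). No member's DMM and sham arrays were apart, whereas 0.499% of all genes were. Without the dim sham replicate 2 the 9 differences lay between −0.05 and 0.19. That array is on slide 1, where they ran from 0.21 to 1.41, while on slide 2 they ran from −0.33 to 0.05.

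At 1 week 6 means were higher and 3 lower in DMM joints, between −0.11 in Uros and 0.16 in Ppox. The 95% interval for Alas2 ran from −0.46 to 1.19 at 6 weeks and from −0.74 to 0.91 at 1 week. Again 0% of all genes passed in limma, with 273 at an unadjusted p under 0.05, and 0 of the 9 members were apart against 1.1% of all genes. The difference between the DMM effects at the 2 times was 0.28 ± 0.55 for Alas2 (SE), and 0% of all genes passed in that comparison. Averaged over both times, the DMM difference was 0.23 ± 0.27 for Alas2 and 0.36 ± 0.32 for Urod, with 0% of all genes called.

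The wider pathway was taken from a list of 37 genes of haem and iron handling, of which 36 were tested. Between 6 weeks and 1 week over both surgeries, 27 had higher and 9 lower means, with a median of 0.28. One passed, Slc48a1, a haem transporter, at 0.50 ± 0.10 (SE, limma adjusted p = 0.0396). Its values were 3.96 ± 0.17 in 6-week DMM joints and 3.85 ± 0.09 in 6-week sham joints, against 3.41 ± 0.14 in 1-week DMM joints and 3.40 ± 0.12 in 1-week sham joints (SD, n = 4 each). The next were Glrx5, Abcb6, a mitochondrial porphyrin transporter, Fam210b and Tfrc, the transferrin receptor, with differences of 0.76, 0.69, 0.88 and 0.70 and limma adjusted p of 0.0514 to 0.0748. Hmox1, which breaks haem down, was 0.57 ± 0.24 higher, with a limma adjusted p of 0.258. Ftl1 and Fth1, the ferritin chains that store iron, gave 0.11 and 0.27, with adjusted p of 0.717 and 0.439 in limma.

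Markers of red cell precursors had higher means at 6 weeks as well. Of 26 erythroid genes 25 were tested, and all 25 had higher means at 6 weeks, with a median difference of 1.08, of which Gfi1b and Tal1 passed in limma. Their summed linear level, in multiples of the array's 75th percentile, ranged over 2534 to 3634 in 6-week DMM joints, 2476 to 3450 in 6-week sham joints, 1940 to 2778 in 1-week DMM joints and 1748 to 2776 in 1-week sham joints. Their part in the difference of the haem synthesis genes was not tested. More erythroid cells and more RNA per cell cannot be told apart in such bulk samples. The labelled tissue showed its own markers: 16 genes of osteoblasts, osteocytes and osteoclasts were all tested, and their summed level was 1369 to 2764, 1216 to 2745, 1971 to 2937 and 1705 to 2543 in the same order of groups. Their median difference between the times was −0.46, with Mmp9 called lower, and 12 respiratory chain genes, another set of mitochondrial proteins, had a median of 0.01.

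Other cell types in and around bone were followed by their markers too. Genes of B cells had higher means at 6 weeks in 10 of 10, with a median difference of 0.74 and Ms4a1 called. Megakaryocyte and platelet genes were higher in 7 of 8 (median 0.83, none called), adipocyte genes in 8 of 8 (0.68, none called), skeletal muscle genes in 7 of 7 (0.63, Mylpf called) and chondrocyte genes in 8 of 10 (0.81, Chad called). For adipocyte and chondrocyte genes the median differences were −0.15 and 0.03 after DMM, with 7 of 8 adipocyte genes lower, and 1.62 and 1.72 after sham. Cell cycle genes were higher in 10 of 10 (0.45) and macrophage genes in 8 of 10 (0.29), with none called, while neutrophil genes were higher in 2 of 12, with a median of −0.15. Summed over each list, chondrocyte markers ranged over 17.9 to 59.9, 25.7 to 72.8, 18.4 to 78.6 and 18.0 to 36.4 in 6-week DMM, 6-week sham, 1-week DMM and 1-week sham joints. Megakaryocyte and platelet markers ranged over 142 to 259.9, 118 to 236.5, 64.4 to 178 and 96.6 to 168 in that order. The part of these cell types in the result was not tested.

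The difference between the times was also taken within each of the 2 slides, which hold 2 arrays of every group, without a test of the slides against each other. Alas2 differed by 1.81 within slide 1 and by 0.80 within slide 2. Fech gave 1.57 and 0.79, Alad 1.44 and 0.62, and Slc25a37 1.27 and 0.71. Ppox was alike on both, at 0.81 and 0.80, and Alas1 was −0.24 and −0.33. The direction of all 9 genes held on either slide, and the mean of the 25 erythroid genes differed by 1.23 and 0.70. With the slide as a block, 6 of the 9 genes passed in place of 3. More of all genes tested passed under that setting as well, with the counts in the last section.

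**Figure D5:**
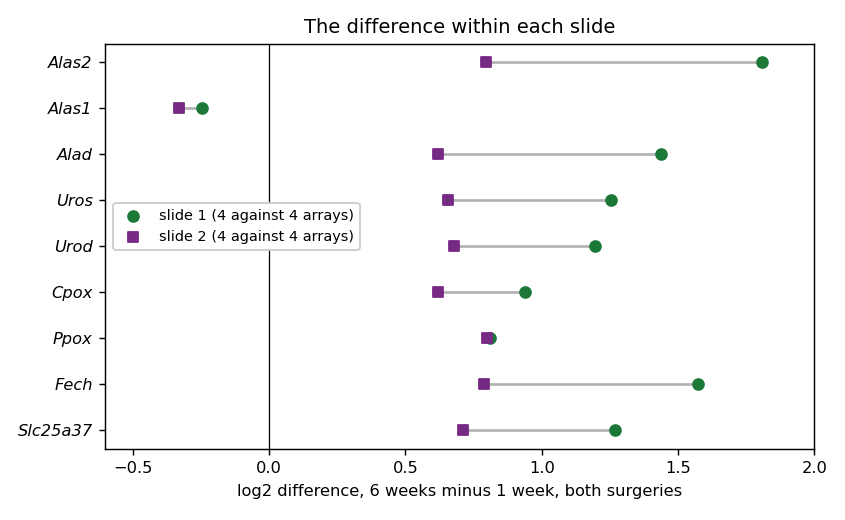
Log2 difference of 6 weeks minus 1 week over both surgeries for the 9 haem synthesis genes, computed within slide 1 (circles) and slide 2 (squares), each from 4 arrays of 6 weeks and 4 of 1 week. Alas2 gives 1.81 and 0.80, Ppox 0.81 and 0.80, and Alas1 lies below 0 on both slides.

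The calls of Alas2, Alad and Fech lie near the threshold, and 12 of the 16 arrays, when left out singly, end all of them. Centring arrays on the median, or testing without the filter on dim probes, also ended all 3 calls, with adjusted p of 0.0638 to 0.0698 in limma. The arrays whose omission left calls were sham 6-week replicate 2 (8 genes), DMM 1-week replicate 3 (5), sham 1-week replicate 3 (4) and DMM 6-week replicate 3 (3). The number of all genes that passed moved with single omissions too, and the last section gives its range but no count for each array. These member counts are therefore not set against a share of all genes. The differences of all 9 genes kept their sign under the 28 alternatives tried, and that of Alas2 lay between 0.80 and 1.81.

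Since 7 genes varied together with Alas2 over the 16 arrays, start sites were scanned for motifs that erythroid factors are known to bind. Windows of 250 bases before the start were read from RefSeq for GRCm38.p6 and searched on both strands for GATAA, bound by Gata1, and CACCC, bound by Klf1 and related factors. RefSeq windows were at hand for Alas2, Alas1, Alad, Uros, Urod, Cpox and Ppox, 10 windows in all, and those of Fech and Slc25a37 were not analysed here. GATAA was found in 3 windows, those of Alas2, Cpox and 1 of the 2 of Uros, and in 22.6% of 32851 windows of all genes. CACCC was found in 5 of the 10 and in 52.0% of all. The Alas2 window held GATAA 86 bases before the start and 3 adjacent copies of CACCC, all of them on the opposite strand. The windows of Alas2, Cpox and the outer start of Alas1 are shown 5′ to 3′ in the direction of the gene, with matches to either motif, read on either strand, in capitals.
Alas2, chrX:150547167-150547416, plus strand: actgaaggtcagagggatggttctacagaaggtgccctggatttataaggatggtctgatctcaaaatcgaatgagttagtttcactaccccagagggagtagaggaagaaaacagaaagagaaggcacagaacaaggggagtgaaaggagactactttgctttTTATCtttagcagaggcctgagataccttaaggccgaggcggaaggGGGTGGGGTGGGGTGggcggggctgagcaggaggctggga
Cpox, chr16:58669958-58670207, plus strand: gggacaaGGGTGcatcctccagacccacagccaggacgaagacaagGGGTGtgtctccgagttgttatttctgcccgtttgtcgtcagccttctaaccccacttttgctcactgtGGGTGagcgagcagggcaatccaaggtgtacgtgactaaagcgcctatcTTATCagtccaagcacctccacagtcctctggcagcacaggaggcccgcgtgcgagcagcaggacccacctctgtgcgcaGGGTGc
Alas1, chr9:106247955-106248204, minus strand: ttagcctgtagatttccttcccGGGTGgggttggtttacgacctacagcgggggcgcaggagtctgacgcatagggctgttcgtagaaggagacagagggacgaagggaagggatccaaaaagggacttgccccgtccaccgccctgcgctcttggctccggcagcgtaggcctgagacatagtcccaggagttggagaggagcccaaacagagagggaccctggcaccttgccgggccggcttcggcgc
A match is a description of letters and no measure of binding.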

How the data were processed

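Expression was measured on 16 Agilent 1-colour arrays. The authors deposited scanner files whose intensity per spot (gProcessedSignal) was background-corrected by Feature Extraction 10.7.3.1, per the file headers, with a call of whether a spot lies well above background and mm9 coordinates. They also deposited a value table read as log2, made with limma 3.20.9 per the submitters' processing notes. It was used only as an alternative, and its background correction, normalization and centring are not stated in the sources here.

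Control and outlier spots were left out, spots of a probe averaged, and log2 values taken minus each array's 75th percentile. Probes had to be well above background on at least 4 of 16 arrays (43268 did). For each gene the probe with the highest mean was used, which left 28250 genes. limma 3.58.1 (R 4.3.3) fitted 1 mean per group to all arrays, with 7 comparisons, and p-values were 2-sided and Benjamini-Hochberg adjusted over all 28250 genes at 0.05. Permutation tests used scipy 1.17.1. The fit was tested on simulated data. The arrays' number limits the precision: over all genes the standard error of log2 differences had a median of 0.30 for 4 arrays against 4 and 0.21 for 8 against 8. Replicate numbers follow record order and pair nothing. Each member is named with its probes. Other pathway genes are named where they passed or stood among the smallest p, and those most like a member by highest Pearson r. Ftl1, Fth1 and Hmox1 were named after their values were seen. The members, gene lists and comparisons were chosen with earlier results of these data known.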

Additional observations from a re-analysis of the deposited data

Results flagged for a closer look

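In 6 of 72 groups of 4 arrays, taken over the 18 measured probes, 1 array stood apart from the other three by the Dixon criterion, which chance meets in about 1 of 20 groups. In 5 of them the array was sham 6-week replicate 2, whose signal was the dimmest. Urod read 4.20 there against 6.15 to 6.37 on the other three. Uros read 1.79 against 3.50 to 3.71 on 1 probe and −2.95 against −1.69 to −1.44 on a second. Slc25a37 read 2.02 against 2.34 to 2.38 on 1 probe and −1.06 against 1.36 to 1.47 on the probe that lies apart from the others. The sixth was Alas2 on DMM 6-week replicate 3, at 5.99 against 6.63 to 6.75.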

How the results depend on the processing

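Between 6 weeks and 1 week over both surgeries, 3 haem synthesis genes and 247 genes in all passed. Median centring and no filter on dim probes left 0 members and 0 genes, and quantile normalization ended the call of Alas2 (adjusted p 0.0508 in limma). The other settings that moved a count gave 5 members (the authors' deposited table), 6 members and 645 genes (slide as a block), 8 members and 5884 genes (array weights), 422 genes (normexp background) and 451 genes (probes well above background on all arrays). The count of all genes that passed in the deposited table is not given here, so its 5 members are not set against a share. Leaving out single arrays gave 0 to 8 members and 0 to 1502 genes. Leaving out single arrays gave 0 to 1 genes after sham, 0 to 27 after DMM and 0 to 1 for DMM minus sham at 6 weeks, with 0 members in each. Array weights also gave 8 members and 3305 genes after sham, 6 members and 963 genes after DMM, 1 gene for DMM minus sham at 6 weeks and 2 for the difference of the DMM effects. The lowest array weight, 0.0757, was that of sham 6-week replicate 2. Cause was not tested. All 9 members kept their sign in this comparison under all 28 alternatives. The 7 correlations with Alas2 kept their sign and passed without the 2 farthest arrays, after group means were subtracted and within each slide. Within each time they were not tested, and at 6 weeks those of Alad and Slc25a37 were 0.29 and 0.42. By contrast that of Alas1 (−0.24) was 0.029 without the 2 farthest arrays, 0.040 after group means were subtracted, −0.71 within slide 2 and 0.72 within 6 weeks. It was −0.35 over both times without sham 6-week replicate 2, the array with the lowest 6-week value of both synthases. No paired analysis was possible because sham and DMM joints came from different mice and nothing in the labels ties them.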
